A study of Mus musculus with 8 samples.

Results

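Immediate early genes are transcribed within minutes of a stimulus, from factors already present in the cell. The 10 genes described here were Fos, Fosb, Jun and Junb, which encode AP-1 subunits, the zinc finger genes Egr1, Egr2 and Egr3, the orphan nuclear receptor gene Nr4a1, Ier2 and the stress-responsive gene Atf3. They were chosen by gene symbol, and 13 of 45101 probe sets on the arrays carried one of these symbols. The genes were 10 of 18193 genes tested. The study hybridised 8 Affymetrix mouse arrays, 2 for each of 4 groups. The groups were DN3 thymocytes of wild-type (WT) mice given DMSO (WT DMSO) or the gamma-secretase inhibitor MRK-003 (WT GSI), and those of Ikaros-deficient mice, labelled IkL/L, given DMSO (IkL/L DMSO) or the inhibitor (IkL/L GSI). Treatment lasted 16 h, the inhibitor was at 5 mM as labelled, and DMSO was its vehicle. All cells were lineage-negative thymocytes grown on OP9 DL1 stromal cells and sorted afterwards for CD25 and against lineage markers and CD44. The ages of the mice and the nature of the IkL/L allele are not given in the sources used here. Nothing in the labels says that the replicates of a group came from separate mice or cultures, so a p-value measures only the spread between these arrays, which may be technical. The series asked which genes the inhibitor changes in each genotype.

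FOS and JUN proteins pair through leucine zippers to form AP-1, which binds DNA and drives genes of growth, activation and stress. The growth signal that reaches them runs through RAS and ERK kinases to serum response factor and its ELK partners on CArG boxes, and through CREB on cAMP response elements. In early thymocytes the EGR proteins are known as ERK-dependent effectors of the pre-T cell receptor, and Nr4a1 marks strong antigen receptor signals. Gamma-secretase frees the intracellular part of Notch, which DN3 cells need, and Ikaros is the transcription factor encoded by Ikzf1.

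Promoters are shown for the 4 AP-1 genes, whose levels were high on the same arrays, and for Egr2. Among the 7 members with a listed promoter, Egr2 alone had a CArG box in the window searched. The 150 bases before a listed start site were taken from RefSeq (GRCm38.p6) and are written 5′ to 3′ on the strand of the gene. Capitals mark the CArG box and the core TGACG of the cAMP response element, read on either strand.
Fos, chr12:85473740-85473889, plus strand: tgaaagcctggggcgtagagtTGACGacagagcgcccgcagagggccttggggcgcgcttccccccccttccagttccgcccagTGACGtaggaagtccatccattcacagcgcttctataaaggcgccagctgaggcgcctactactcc
Fosb, chr7:19310046-19310195, minus strand: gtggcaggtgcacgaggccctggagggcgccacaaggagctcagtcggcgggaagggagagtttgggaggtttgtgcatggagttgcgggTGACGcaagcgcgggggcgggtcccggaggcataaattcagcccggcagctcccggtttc
Jun, chr4:95052223-95052372, minus strand: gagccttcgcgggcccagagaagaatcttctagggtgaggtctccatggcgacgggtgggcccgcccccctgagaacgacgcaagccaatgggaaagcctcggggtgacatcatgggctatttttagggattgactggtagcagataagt
Junb, chr8:84978749-84978898, minus strand: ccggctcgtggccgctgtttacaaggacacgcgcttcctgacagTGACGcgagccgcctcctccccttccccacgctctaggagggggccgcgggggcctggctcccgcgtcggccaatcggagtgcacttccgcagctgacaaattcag
Egr2, chr10:67537719-67537868, plus strand: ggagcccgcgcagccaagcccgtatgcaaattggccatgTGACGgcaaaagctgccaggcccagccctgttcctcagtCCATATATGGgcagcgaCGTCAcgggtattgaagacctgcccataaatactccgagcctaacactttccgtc
Of the members, 7 matched an entry in the promoter table, which spans 250 bases before to 50 after a start. Egr1, Egr3 and Ier2 had no entry and were not searched, nor were bases outside this window. The core TGACG occurred in 6 of the 7 (Fos, Fosb, Junb, Egr2, Nr4a1 and Atf3) and in 20.8% of all 32851 promoters of that length. A member counted as a match if any of its listed promoters did, whereas the percentages count single promoters. Member counts and percentages, here and for the motifs below, thus differ in unit. The full element TGACGTCA, which overlaps the core, occurred in none of the 7 and in 1.79% of all promoters. The AP-1 motif TGANTCA was found in none of the 7 (7.81% of all), and the EGR motif GCGNGGGCG, searched on both strands, in Fosb and Nr4a1 (5.55% of all). A CArG box lay 72 bases before the listed start in Egr2 and occurred in 1.63% of all promoters. A match describes letters in this window and was not tested as a bound site.

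The sorted population carried the markers of its label, though these were not the only markers above the array median. Of 19 markers of the stromal feeder cells, 11 also lay above it on all 8 arrays. All 9 measured DN3 markers lay above the array median on all 8 arrays, among them Rag1, Cd3e and Bcl11b, and the Notch target Dtx1 fell with the inhibitor by 4.20 ± 0.20 (log2 difference ± SE) in WT and 4.55 ± 0.20 in IkL/L (limma, adjusted p = 0.00036 and 9.48e-05). The replicates lay further apart in both WT groups than in IkL/L. Of all genes, 390 (2.14%) lay over 2-fold apart between the WT DMSO arrays and 830 (4.56%) between the WT GSI arrays, against 153 (0.841%) and 146 (0.803%) in IkL/L DMSO and IkL/L GSI. Array 1 was the higher one for 198 of the 390 genes and for 604 of the 830. These gaps do not say which array of a group departs. The AP-1 members were highest on the WT arrays numbered 1, so results that rest on these 2 arrays are given with and without them. The labels name several RNA amounts and experiment codes without mapping them to samples, so a batch could not be assigned.

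Fos had the largest difference between replicates of all 18193 genes in both WT groups. Its log2 level was 10.89 and 6.76 on WT DMSO arrays 1 and 2, and 12.72 and 6.27 on WT GSI arrays 1 and 2. In IkL/L cells it was 6.62 and 6.58 under DMSO, and 8.09 and 9.07 under the inhibitor. The gap was thus 17.5-fold within WT DMSO and 87.7-fold within WT GSI, while the IkL/L DMSO arrays lay 1.03-fold apart. Both WT arrays numbered 1 were above every other array, the WT arrays numbered 2 were level with IkL/L DMSO, and the IkL/L GSI arrays lay in between. In bulk RNA, a change in the share of cells that express a gene and a change in RNA per cell cannot be told apart.

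Jun, the main partner of FOS in AP-1, was likewise highest on both WT arrays numbered 1. Its levels were 9.42 and 7.34 (DMSO) and 10.56 and 8.03 (inhibitor) in WT, and 7.39 and 7.20 (DMSO) and 8.76 and 8.35 (inhibitor) in IkL/L. The gap in WT GSI was 5.79-fold and ranked 41st in size of all genes. A second Jun probe set, 1417409_at, had a wider gap of 10.7-fold in WT GSI and, like the first, its highest mean in WT GSI and its lowest in IkL/L DMSO. Both probe sets placed the IkL/L GSI arrays above the IkL/L DMSO arrays without overlap.

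Junb and Fosb were high chiefly on WT GSI array 1. Junb, which encodes a weaker activator of the JUN family, was at 6.76 and 5.99 (DMSO) and 8.28 and 5.79 (inhibitor) in WT, and 6.09 and 6.48 (DMSO) and 6.45 and 6.64 (inhibitor) in IkL/L. Fosb, a relative of Fos, was at 4.81 and 3.56 (DMSO) and 5.82 and 3.37 (inhibitor) in WT, and 3.51 and 3.34 (DMSO) and 3.29 and 3.65 (inhibitor) in IkL/L. Fosb lay above the median of all probe sets on 1 of 8 arrays, WT GSI array 1, and its values elsewhere are those of a dim probe set. In neither gene did the IkL/L GSI arrays separate from the IkL/L DMSO arrays.

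**Figure D1:**
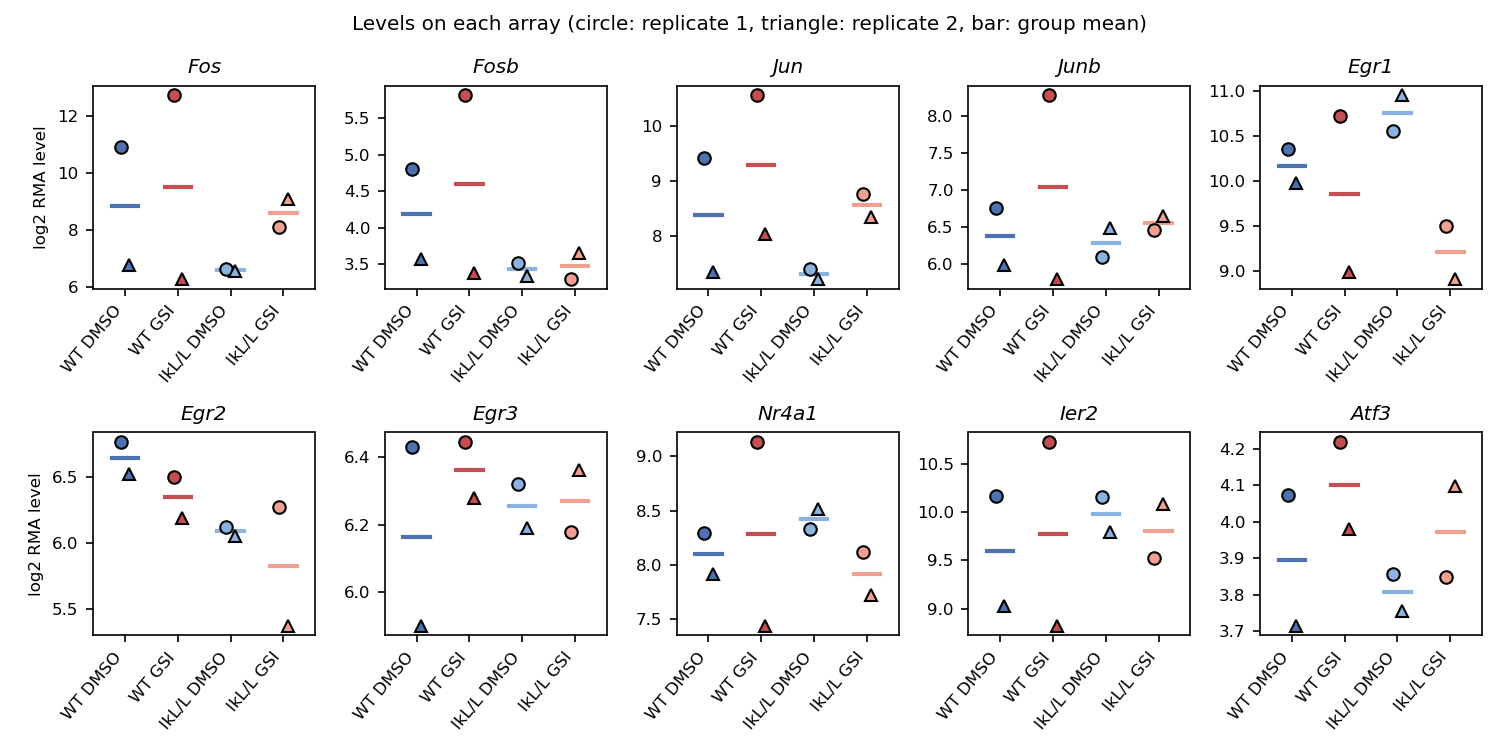
Log2 RMA level (vertical axis, a separate scale for each gene) of the 10 members, each at its probe set with the highest mean, on each of the 8 arrays, by group; circles are replicate 1, triangles replicate 2 and bars group means of 2 arrays. Fos, Fosb, Jun and Junb are highest on both WT arrays numbered 1, whereas in IkL/L the Egr1 levels under the inhibitor (9.50 and 8.91) lie below those under DMSO (10.55 and 10.95).

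Egr1 had another pattern. This gene, whose product is induced by ERK and acts in the step past the pre-T cell receptor checkpoint, was at 10.36 and 9.98 (DMSO) and 10.72 and 8.99 (inhibitor) in WT. It was at 10.55 and 10.95 (DMSO) and 9.50 and 8.91 (inhibitor) in IkL/L. In IkL/L the inhibitor arrays were the lower ones without overlap, and in WT they spanned the DMSO arrays. The WT GSI arrays lay 3.33-fold apart.

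Egr2 and Egr3 are relatives of Egr1 that thymocytes also use downstream of the pre-T cell receptor. Egr2 (1427683_at) was at 6.77 and 6.53 (DMSO) and 6.50 and 6.19 (inhibitor) in WT, and 6.12 and 6.05 (DMSO) and 6.27 and 5.37 (inhibitor) in IkL/L. The WT DMSO arrays were above the others, and a second probe set, 1427682_a_at, gave group means in the same order. The Egr3 probe set with the higher mean (1421486_at) covered a narrow range, from 5.90 on WT DMSO array 2 to 6.45 on WT GSI array 1, with all groups overlapping in part.

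The other Egr3 probe set, 1436329_at, disagreed with the first. It was at 5.44 and 5.90 (DMSO) and 4.91 and 4.98 (inhibitor) in WT, and 4.37 and 4.38 (DMSO) and 4.85 and 4.07 (inhibitor) in IkL/L. The IkL/L DMSO arrays were lower than the WT DMSO arrays by a log2 difference of -1.30 ± 0.26 (SE; limma over all probe sets, adjusted p = 0.094, not past the threshold), whereas the first probe set gave 0.09 ± 0.22. It was above the median of all probe sets on 2 of 8 arrays, those of WT DMSO. Over the 8 arrays it ranged from percentile 30.4 to percentile 56.4 of all probe sets.

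Nr4a1, the nuclear receptor gene also called Nur77, was at 8.29 and 7.92 (DMSO) and 9.13 and 7.44 (inhibitor) in WT, and 8.33 and 8.52 (DMSO) and 8.12 and 7.72 (inhibitor) in IkL/L. As with Egr1, the IkL/L GSI arrays lay below the IkL/L DMSO arrays, and WT GSI array 1 was the highest of all. Ier2, a short-lived nuclear protein gene, was at 10.17 and 9.03 (DMSO) and 10.73 and 8.82 (inhibitor) in WT, and 10.16 and 9.80 (DMSO) and 9.53 and 10.09 (inhibitor) in IkL/L. Its lowest values were on the WT arrays numbered 2, and treated and untreated arrays overlapped in both genotypes. Atf3 lay between 3.71 and 4.22, below the median of all probe sets on every array, which leaves little room to see a fall.

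The spread between replicates was shared by most members, each taken at its probe set with the highest mean. In WT GSI, 7 of the 10 lay over 2-fold apart (Fos, Fosb, Jun, Junb, Egr1, Nr4a1 and Ier2), beside 4.56% of all genes, and in WT DMSO 4 did (Fos, Fosb, Jun and Ier2), beside 2.14%. All 11 of these gaps had array 1 as the higher one. At these probe sets none lay over 2-fold apart in IkL/L DMSO or IkL/L GSI, where Fos in IkL/L GSI was the widest at 1.97-fold, with array 2 the higher. The second Egr2 probe set, 1427682_a_at, lay 2.10-fold apart in IkL/L GSI. The median gap of the members was 1.82 (log2) in WT GSI and 0.65 in WT DMSO, against 0.22 and 0.19 for all genes. In all, 10 of 10 members were higher on array 1 in each WT group at these probe sets, beside 63.5% and 62.2% of all genes in WT DMSO and WT GSI. The other Egr3 probe set, 1436329_at, was higher on array 2 in both.

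**Figure D2:**
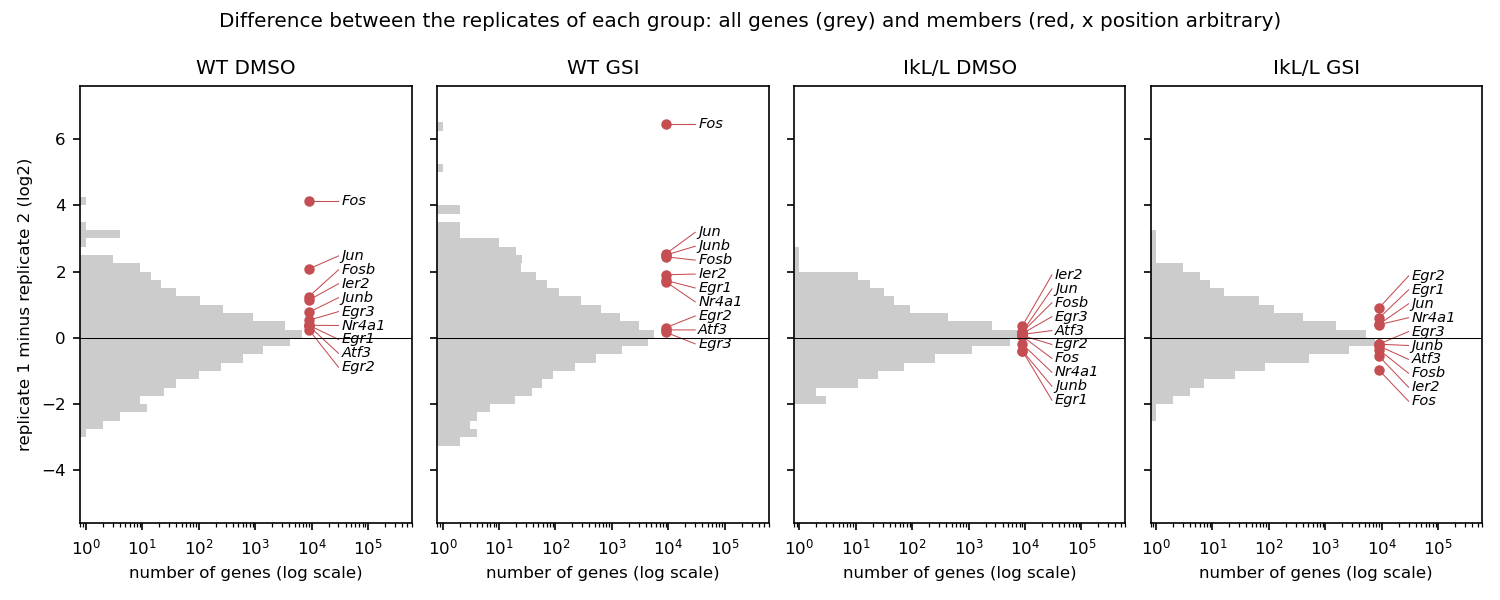
Replicate 1 minus replicate 2 (log2, vertical axis) in each group: grey bars count all 18193 genes on a log scale, and red points are the 10 members, each at its probe set with the highest mean, placed at an arbitrary horizontal position. Fos stands at 4.13 in WT DMSO and 6.45 in WT GSI, beyond all other genes, while no point exceeds 1 in size in IkL/L DMSO or IkL/L GSI.

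The inhibitor response was tested first in IkL/L, where fewer genes lay over 2-fold apart between replicates. Fos was higher under the inhibitor by a log2 difference of 1.98 ± 1.93 (SE), Jun by 1.26 ± 0.84, and Egr1 was at -1.55 ± 0.50. None of the 10 members was called in the fit of all 8 arrays (limma, adjusted p below 0.05), beside 16.8% of all genes. The adjusted p was 0.56 for Fos, 0.37 for Jun and 0.070 for Egr1, and Egr1 alone was below 0.05 without adjustment (1 of 10, beside 29.8% of all genes). Without WT GSI array 1 or without WT GSI array 2, Egr1 was called (adjusted p = 0.00448 and 0.00423, with 21.2% of all genes called each time). A fit of all arrays uses a single estimate of each gene's spread, to which the WT arrays contribute.

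With only the 4 IkL/L arrays in the fit, 3 of 10 members were called in IkL/L, beside 24.9% of all genes. Fos rose by 1.98 ± 0.30 (SE; 3.95-fold; limma, adjusted p = 0.00378) and Jun by 1.26 ± 0.20 (2.39-fold; adjusted p = 0.0040). Egr1 fell by 1.55 ± 0.23 on the log2 scale (2.92-fold; adjusted p = 0.00355). The same 3 genes passed without both WT arrays numbered 1, an alternative chosen after seeing the data, with adjusted p between 0.00372 and 0.00407 and 24.8% of all genes called. Nr4a1 was at -0.50 ± 0.19 with only the IkL/L arrays (adjusted p = 0.11), and Fosb, Junb, Egr2, Egr3, Ier2 and Atf3 did not pass. Groups did not overlap for 4 of 10 members (Fos, Jun, Egr1 and Nr4a1), beside 62.4% of all genes. The share of members with separate groups was thus below that of all genes, and the share called with only the IkL/L arrays lay close to that of all genes. The matching fit of only the WT arrays called 1 of all 18193 genes for the inhibitor in WT (0.0055%). Calls in these separate fits thus cannot be compared between the genotypes.

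In WT cells the sign of the AP-1 genes and of Egr1 depended on which arrays were kept. None of the 10 members was called (limma, adjusted p between 0.54 and 0.92; 0 below 0.05 unadjusted, beside 21.1% of all genes), with 6.47% of all genes called. Fos was at 0.67 ± 1.93 with all arrays, and at -0.49 ± 0.43 without both WT arrays numbered 1. Jun was at 0.92 ± 0.84 and 0.69 ± 0.28 in these fits, Junb at 0.66 ± 0.67 and -0.20 ± 0.26, and Egr1 at -0.31 ± 0.50 and -0.99 ± 0.33. Between these fits Fos and Junb turned sign. Jun was at -0.35 without WT GSI array 1 alone, and Egr1 at 0.56 without WT GSI array 2 alone, so that these also turned. Junb was called at 1.91 (adjusted p = 0.0326, with 3.73% of all genes called) without WT GSI array 2, which leaves the high array as the only one of its group. With 1 probe set a gene, the WT groups did not overlap for Egr2 (1 of 10, beside 44% of all genes), at -0.30 ± 0.28. The other Egr3 probe set, 1436329_at, also separated in WT (-0.72 ± 0.26; limma over all probe sets, adjusted p = 0.19).

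**Figure D3:**
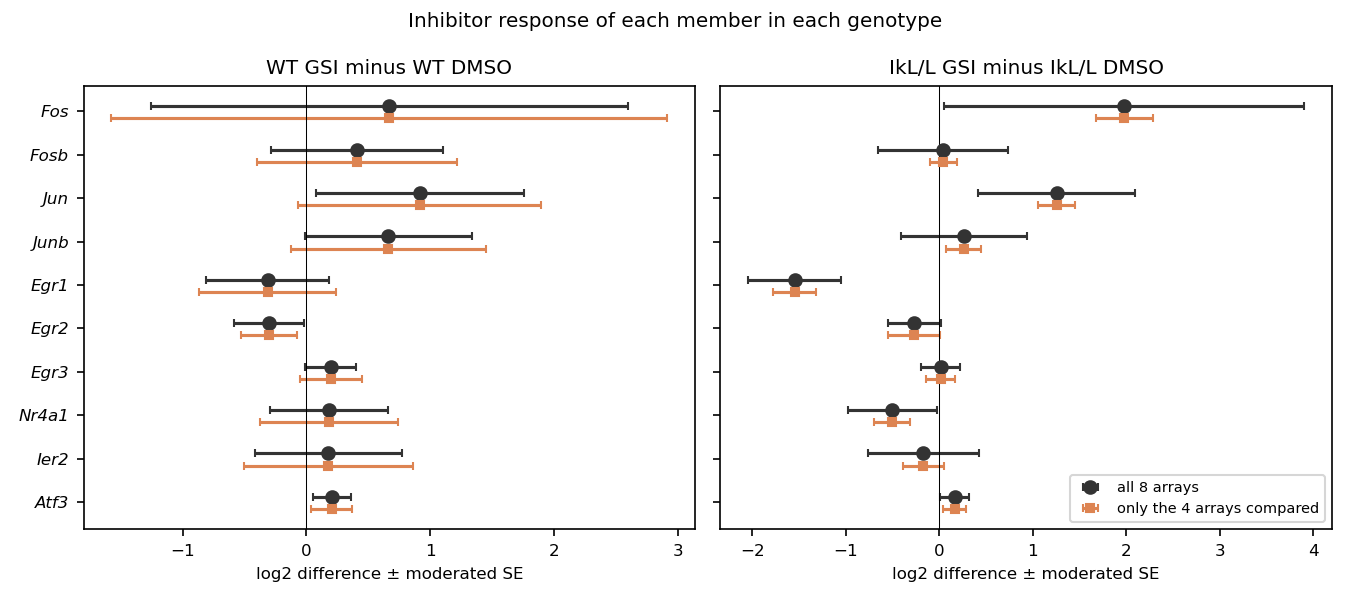
Log2 difference between inhibitor and DMSO (horizontal axis, bars are moderated SE) for each member in WT and in IkL/L, fitted on all 8 arrays (black) or only on the 4 arrays compared (orange). In IkL/L the error of Fos shrinks from 1.93 to 0.30 when the WT arrays are left out, and in WT it widens to 2.25.

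Averaged over both genotypes, the members had a median log2 difference of 0.15, beside -0.002 for all genes, and none was called (limma, 23.3% of all genes called; Egr1 alone below 0.05 unadjusted, beside 33.4% of all genes). Egr1 was at -0.93 ± 0.35 (adjusted p = 0.099). Without both WT arrays numbered 1, Egr1 fell by 1.27 on the log2 scale (SE 0.20; adjusted p = 0.00465) and Jun rose by 0.97 ± 0.17 (adjusted p = 0.00634), with 24.5% of all genes called. Without WT GSI array 1 alone, Egr1 (-1.36) and Nr4a1 (-0.58) were called, beside 25.5% of all genes. Without WT GSI array 2, Fos (2.94), Jun (1.72) and Junb (1.09) were called, beside 22.6%. Which members passed in the average thus depended on which WT GSI array was kept.

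The difference between the genotypes' responses was not called for any member (limma, interaction; adjusted p between 0.87 and 1.00; 0 of 10 below 0.05 unadjusted, beside 5.99% of all genes), and was called for 0.044% of all genes. It was 1.31 ± 2.72 for Fos and -1.24 ± 0.70 for Egr1. Without both WT arrays numbered 1 it was 2.47 ± 0.52 for Fos (adjusted p = 0.42, with 0% of all genes called), from WT arrays that had no replicate.

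The genotypes were compared under each treatment. Under DMSO none of the members was called (limma, 1.74% of all genes called; 0 below 0.05 unadjusted, beside 10.2%), although 5 of 10 had groups that did not overlap with 1 probe set a gene (Fos, Fosb, Egr1, Egr2 and Nr4a1), beside 39.8% of all genes. The other probe sets of Egr3 (1436329_at) and Jun (1417409_at) did not overlap either. Egr1 was higher in IkL/L by 0.59 ± 0.50 and Nr4a1 by 0.32 ± 0.47, while Egr2 was lower (-0.56 ± 0.28). Fos was at -2.22 ± 1.93 with all arrays, and at -0.16 ± 0.37 without both WT arrays numbered 1. Under the inhibitor none was called (limma, 1.46% of all genes called; 0 below 0.05 unadjusted, beside 10.7%) and, with 1 probe set a gene, the groups separated for none of the 10, beside 37.2% of all genes. The other Egr3 probe set, 1436329_at, did separate there, at -0.49 (log2). There Fos was at -0.91 ± 1.93 with all arrays, and at 2.31 ± 0.37 (adjusted p = 0.033, 1.69% of all genes called) without both WT arrays numbered 1. That value sets 2 IkL/L arrays against a single WT array, and without WT GSI array 2 instead it was -4.14 (not called), while Fosb was called lower in IkL/L (-2.35, adjusted p = 0.0484, with 1.27% of all genes called). The WT and IkL/L comparisons under a treatment share arrays with the inhibitor responses above.

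Further immediate early genes showed the same arrays high. Of the 28 listed, 15 lay over 2-fold apart in WT GSI and 7 in WT DMSO, array 1 being the higher one each time, against 1 (DMSO) and 2 (inhibitor) in IkL/L. Klf4, a zinc finger factor of growth arrest, had the second largest gap of all genes in both WT groups. Its levels were 8.65 and 5.32 (DMSO) and 10.46 and 5.33 (inhibitor) in WT, and 4.80 and 4.99 (DMSO) and 5.98 and 5.56 (inhibitor) in IkL/L. Dusp1, which encodes a phosphatase that switches MAP kinases off, was at 9.83 and 8.70 (DMSO) and 11.45 and 7.97 (inhibitor) in WT, and between 8.66 and 8.82 on all IkL/L arrays. Cd69, an early activation antigen gene, was at 9.27 and 7.35 (DMSO) and 10.83 and 7.34 (inhibitor) in WT. Klf4, Dusp1 and Cd69 were named after their values were seen.

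These further genes did not move one way with the inhibitor. In the average, 5 of the 28 rose and 3 fell (limma; 10.8% of all genes higher and 12.5% lower), with a median of 0.30. Gadd45b, a growth arrest and stress gene, rose by 1.37 ± 0.27 (adjusted p = 0.0074), Btg2, an antiproliferative gene, by 1.07 ± 0.23 (adjusted p = 0.012), and the survival gene Mcl1 by 0.99 ± 0.08 (adjusted p = 0.00025). Klf10, a factor induced by TGF-beta, fell by 1.66 ± 0.22 on the log2 scale (adjusted p = 0.0013). Its levels were 8.38 and 8.27 (DMSO) and 7.21 and 6.99 (inhibitor) in WT, and 8.38 and 8.36 (DMSO) and 6.79 and 5.77 (inhibitor) in IkL/L, so that the treatments did not overlap in either genotype; in WT alone it did not pass (-1.22 ± 0.31, adjusted p = 0.056). Klf10 and Mcl1 did not share the wide WT gaps of Fos. In IkL/L 4 of the 28 rose and 3 fell, beside 7.7% and 9.09% of all genes. In WT 1 rose (Mcl1, 0.81 ± 0.11) and none fell, beside 2.31% and 4.16%.

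Of 13 other AP-1 family genes 4 rose in the average and none fell (10.8% and 12.5% of all genes), with a median of 0.16. They were Jdp2, which encodes a repressor that dimerises with JUN (1.47 ± 0.20, adjusted p = 0.0015), the Fos relative Fosl2 (1.28 ± 0.28, adjusted p = 0.013), Jund (0.93 ± 0.19, adjusted p = 0.010) and the small MAF gene Mafk (0.66 ± 0.19, adjusted p = 0.037). Jdp2 was at 9.43 and 9.02 (DMSO) and 10.74 and 10.08 (inhibitor) in WT, and 8.60 and 8.52 (DMSO) and 10.04 and 10.59 (inhibitor) in IkL/L. It passed in both genotypes (1.19 ± 0.28 in WT, adjusted p = 0.047; 1.75 ± 0.28 in IkL/L, adjusted p = 0.0050).

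Among 9 corepressors and targets of EGR proteins, 3 fell and 1 rose in the average (12.5% and 10.8% of all genes), with a median of -0.048. Nab2, which encodes an EGR corepressor that EGR proteins themselves induce, fell by 1.05 ± 0.13 on the log2 scale (adjusted p = 0.0012). Its levels were 6.72 and 6.67 (DMSO) and 5.66 and 6.04 (inhibitor) in WT, and 7.93 and 8.13 (DMSO) and 6.86 and 6.70 (inhibitor) in IkL/L. It passed in WT (-0.84 ± 0.19, adjusted p = 0.040) and in IkL/L (-1.25 ± 0.19, adjusted p = 0.0041), and under DMSO it was higher in IkL/L than in WT by 1.33 ± 0.19 (adjusted p = 0.015). Cd5, a negative regulator of antigen receptor signals (-1.14 ± 0.27, adjusted p = 0.016), and Id3, an E protein inhibitor gene downstream of EGR1 (-0.63 ± 0.16, adjusted p = 0.024), also fell in the average, and Nfatc1 rose (0.93 ± 0.15, adjusted p = 0.0031). In IkL/L Id3 was at -1.34 ± 0.23 and Cd5 at -1.58 ± 0.38 (both called), Nfatc1 rose (1.08 ± 0.21, adjusted p = 0.011), and 4 of the 9 were above 0. In WT Id3 was at 0.08 ± 0.23 (adjusted p = 0.89).

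Genes upstream of the members were counted beside the 10.8% of all genes called higher and the 12.5% called lower in the average. Of 18 SRF, ELK and MAP kinase genes 3 rose and none fell in the average, with a median of 0.10: the ELK factor genes Elk3 (0.78 ± 0.13, adjusted p = 0.0034), Elk4 (0.48 ± 0.11, adjusted p = 0.017) and Elk1 (0.45 ± 0.12, adjusted p = 0.033). Among these 18, 1 lay over 2-fold apart in WT GSI and none in WT DMSO. Of 11 calcineurin, NFAT and MEF2 genes, the calcium route to Nr4a1, 4 rose and 2 fell, with a median of 0.21. Those that rose were the NFAT gene Nfatc2 (0.81 ± 0.16, adjusted p = 0.0090), the MEF2 genes Mef2c (0.71 ± 0.17, adjusted p = 0.016) and Mef2d (0.69 ± 0.13), and the calcineurin gene Ppp3ca (0.69 ± 0.15). Those that fell were another calcineurin gene, Ppp3r1 (-0.53 ± 0.13; limma, adjusted p = 0.018), and another NFAT gene, Nfatc3 (-0.34 ± 0.10, adjusted p = 0.041). Both were named after their values were seen. Of 10 stress partners of Atf3, 2 rose, Ddit3 (1.19 ± 0.22, adjusted p = 0.0057) and Sesn2 (0.53 ± 0.12, adjusted p = 0.016), and none fell, with a median of 0.098.

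Markers of the stromal feeder cells moved with the array number and were compared with the members. Of 19 stromal markers, 11 lay above the array median on all arrays and 3 on none (Lum, Timp3 and Cdh11). The mean log2 level of the 19 was 6.93 and 6.23 (DMSO) and 7.64 and 6.04 (inhibitor) in WT. It was 7.29 and 6.41 (DMSO) and 7.26 and 6.84 (inhibitor) in IkL/L. Over 2-fold apart were 8 of the 19 (DMSO) and 14 (inhibitor) in WT, and 11 (DMSO) and 1 (inhibitor) in IkL/L. IkL/L DMSO array 1 had a higher mean of these markers than WT DMSO array 1, and Fos was there at 6.62, level with its partner. WT GSI array 1 had the highest mean of these markers and also the highest Fos level, 12.72. With the stromal level as a covariate, chosen after seeing the data, Egr1 was called in IkL/L (-1.70, adjusted p = 0.00245, with 28.3% of all genes called) and no other member was. Of 12 myeloid or dendritic markers 3 lay above the array median on all arrays and 4 on none. In IkL/L 5 of these 12 rose with the inhibitor (7.7% of all genes), and the mean of that list was 5.11 and 5.13 (DMSO) and 6.17 and 6.09 (inhibitor) in IkL/L. Of the other sorted-out types, erythroid markers (2 measured) lay below the array median on every array. Above it on all arrays were 1 of 6 B cell, 4 of 5 later thymocyte, 2 of 4 natural killer and 2 of 2 gamma-delta T cell markers. Called changes in the average were 1 of the 6 B cell, 2 of the 5 later thymocyte, 1 of the 4 natural killer and 0 of the 2 gamma-delta markers. Of all genes 23.3% were called. The later thymocyte markers differed between the IkL/L GSI arrays, where 4 of 5 lay over 2-fold apart with array 1 the higher (Cd8a 8.43 and 6.31, Cd8b1 7.62 and 5.91, Cd2 6.95 and 5.15, Cd28 9.96 and 8.59). The mean of that list was 7.49 and 7.63 (DMSO) and 8.17 and 6.66 (inhibitor) in IkL/L. Of the 9 DN3 markers Dtx1, Il2ra and Ptcra fell in the average. The part of myeloid cells and of later thymocytes in the IkL/L values of Fos, Jun and Egr1 was not tested. Nor was the part of stromal cells in the member levels of either genotype.

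**Figure D4:**
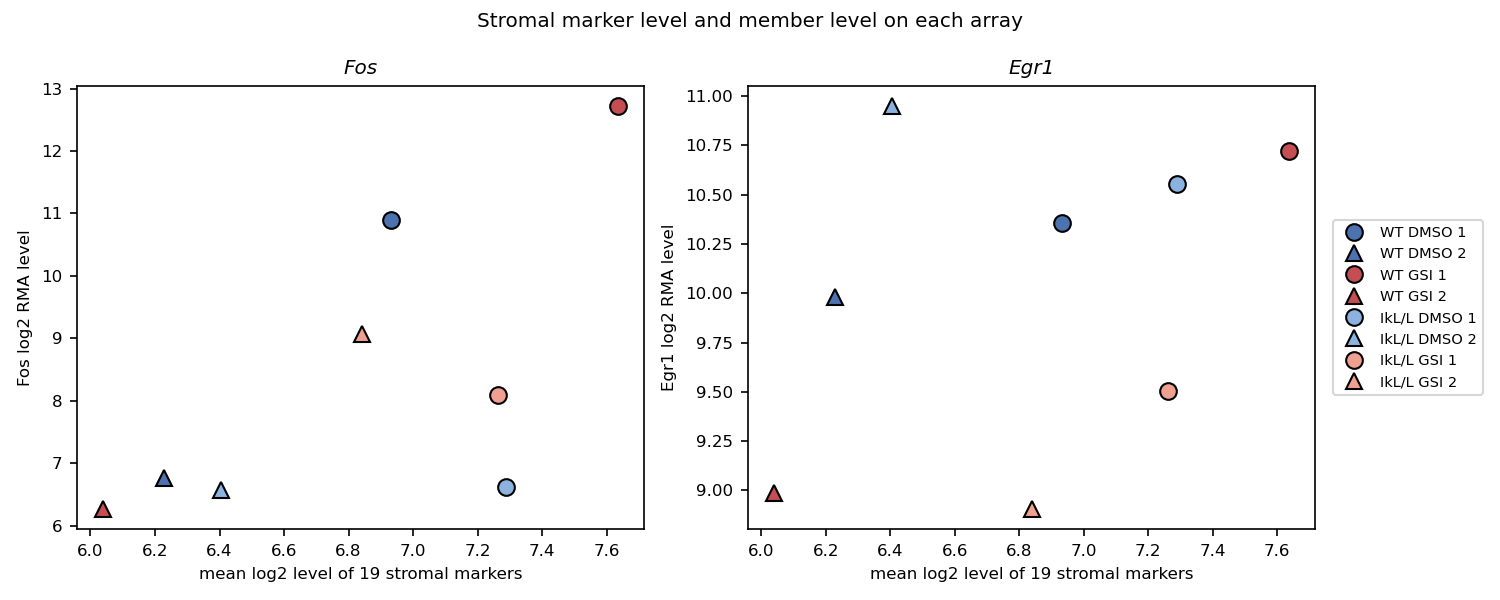
Log2 level of Fos (left) and Egr1 (right) against the mean log2 level of 19 stromal markers on each of the 8 arrays; colours are groups, circles replicate 1 and triangles replicate 2. IkL/L DMSO array 1 combines a stromal level of 7.29 with a Fos level of 6.62, while WT GSI array 1 has the highest values of both at 7.64 and 12.72.

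A control for RNA length, the log2 signal of the 3′ over the 5′ end of GAPDH, was 1.71 and 2.12 (DMSO) and 2.20 and 3.08 (inhibitor) in WT, and 1.87 and 2.48 (DMSO) and 3.09 and 3.03 (inhibitor) in IkL/L. It was lower on array 1 than on array 2 in both WT groups and in IkL/L DMSO, and higher under the inhibitor in both genotypes. With it as a covariate, chosen after seeing the data, 4 of 10 members were called in each genotype (Fos, Fosb, Jun and Ier2), beside 17.6% of all genes in IkL/L and 12.5% in WT. The Fos difference was then 4.77 in WT and 7.03 in IkL/L, and Egr1 was not called. Without the covariate the Fos difference was 0.67 in WT and 1.98 in IkL/L. The control itself changed with treatment, so this fit cannot separate it from the inhibitor response, and no conclusion is drawn from its calls.

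Likeness over the 8 arrays was described for 3 members among 11557 genes that exceeded the median of all values on at least 1 array. The genes closest to Fos by Pearson's r were Dhrs1 (0.98), Rhoh (0.98), which encodes a T cell GTPase, and Gadd45g (0.97), a relative of Gadd45b. Gadd45g was at 6.97 and 5.05 (DMSO) and 7.39 and 4.88 (inhibitor) in WT, so this likeness rests on the WT arrays numbered 1. Closest to Egr1 were Dicer1 (0.98), which encodes the nuclease of microRNA maturation, AB124611 (0.97) and Wdr5b (0.96), all lower on both IkL/L GSI arrays and WT GSI array 2. Closest to Nr4a1 were Crhr1 (0.98), Zfp36 (0.96), which encodes a protein that destabilises AU-rich messages and is itself an immediate early gene, and Vasp (0.96). Zfp36 was at 8.85 on WT GSI array 1 and 6.37 on WT GSI array 2. The arrays of a group share treatment and genotype, so these values are a description.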

How the data were processed

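RNA of sorted DN3 cells was hybridised to Affymetrix mouse arrays after a two-cycle labelling, per the labels. The deposited values are log2 values per probe set, made by the authors with RMA per the submitters' processing notes; its version and the genome build are not given in the sources used here. They were used as deposited. Groups came from the sample titles. Left out of 45101 probe sets were 64 controls, 932 that named more than 1 gene and 9160 with no listed gene, and the probe set with the highest mean represented each of 18193 genes. Differences were tested two-sided with limma 3.58.1 in R 4.3.3 (4 group means, all 8 arrays, eBayes with a trend, Benjamini-Hochberg adjustment over all genes, called below 0.05), with 4 residual and 4.11 prior degrees of freedom. Precision is limited by having 2 arrays a group. The fit was tested on simulated data.

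The members and gene lists were chosen with earlier results of these data known. The rule for names took all members, per list the 4 called genes with the largest average change and up to 2 in other contrasts, and for Fos, Egr1 and Nr4a1 the 3 most correlated genes. Lists also covered B, later thymocyte, natural killer, gamma-delta T and erythroid markers. Of 166 listed genes that were no members, 148 were measured. Sequences came from RefSeq tables of GRCm38.p6, and motifs were searched on both strands. Alternatives were the replicate number as a block, other uses of the probe sets, a level filter, other scalings, variance shrinkage with no trend, a separate fit of each comparison's own arrays, a 2-fold change as minimum, and each array left out in turn. Plots were drawn with matplotlib 3.10.9 in Python 3.11.15.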

Additional observations from a re-analysis of the deposited data

How the results depend on the processing

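The counts of members called with all arrays, and with no block or covariate, were 0 in every comparison. For the inhibitor in IkL/L the count was 3 with only the arrays compared and without both WT arrays numbered 1, 1 (Egr1) with the replicate block (adjusted p = 0.021) or the stromal level as a covariate, 4 with the GAPDH difference as a covariate, and 0 to 1 when a single array was left out. For the average it was 1 with the replicate block (Egr1, adjusted p = 0.0342), 2 without both WT arrays numbered 1, 1 under the stromal covariate, 5 with the GAPDH difference, and 0 to 3 without a single array. For the inhibitor in WT it was 4 with the GAPDH difference and 0 to 1 without a single array. For the genotype under the inhibitor it was 1 without both WT arrays numbered 1 and 0 to 1 without a single array. It stayed 0 under each alternative run for the interaction and for the genotype under DMSO. Other uses of the probe sets, the level filter, other scalings, no trend and the 2-fold minimum gave 0 throughout. Of all genes, the replicate block called 22% for the inhibitor in IkL/L and 27.8% in the average. The stromal covariate called 28.3% and 33.5%. In both comparisons the share of members called by these fits lay below that of all genes. With the GAPDH difference 17.6% of all genes were called in IkL/L, 20.2% in the average and 12.5% in WT, below the shares of members. With only the IkL/L arrays 24.9% of all genes were called. Fos turned from -0.91 to 2.31 in the genotype comparison under the inhibitor without both WT arrays numbered 1. Ier2 turned from -0.17 to 1.45 in IkL/L when the GAPDH difference was fitted. The GAPDH difference was itself higher under the inhibitor, so fits with it cannot separate it from the inhibitor response. Of 1156 values of single members under these alternatives 1013 kept their sign and their side of the threshold, 108 turned sign without being called, 33 became called and 2 were called with the opposite sign. The replicate numbers were not taken as pairs: deviations from the group means correlated at 0.71 between the WT groups and at 0.58 and 0.56 between these and IkL/L DMSO, but between -0.11 and 0.03 for IkL/L GSI. Dim probe sets, Atf3 and Fosb above all, limit what could be seen.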
